A study of Caenorhabditis elegans with 2 samples.

Results

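Binding of LIR-3, a protein of the lin-26 zinc finger family, was examined at 10 genes that make or use microRNAs or that time larval development in Caenorhabditis elegans. The 10 genes were chosen by name in the Ensembl annotation of WBcel235 (the ce11 assembly), out of 19973 protein-coding genes on the nuclear chromosomes. They are drsh-1, pash-1 and dcr-1, which process microRNAs; alg-1 and alg-2, which encode Argonaute proteins; ain-1 and ain-2, which encode Argonaute partners; and lin-14, lin-28 and lin-41, which time larval events. Chromatin immunoprecipitation and sequencing (ChIP-seq) was done on whole hermaphrodite L1 larvae of strain OP312, collected 6 h after synchronization by bleaching and starvation. All larvae carried the unc-119(ed3) allele on chromosome III and the wgIs312 transgene, which encodes LIR-3 with GFP and FLAG at its C-terminus, and the immunoprecipitation used an anti-GFP antibody. The 2 biological replicates form a single group, and no control was analysed here, so nothing could be tested between groups. Because whole animals were used, a peak does not tell in which cells the protein was bound.

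MicroRNAs are cut from hairpin transcripts in the nucleus by the Drosha enzyme with its partner Pasha, and in the cytoplasm by Dicer. An Argonaute protein then carries the mature microRNA to messenger RNAs, and GW182-type proteins bound to the Argonaute lead to repression of the target. In C. elegans the heterochronic genes set which cell divisions belong to which larval stage: lin-14 and lin-28 act early and are repressed by the lin-4 microRNA, and lin-41 acts later and is repressed by let-7.

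The authors' set of peaks passing their threshold on the irreproducible discovery rate (IDR) held 1894 nuclear peaks. The other lists, from before that threshold, held 29984 nuclear regions for the pooled replicates, 29982 for replicate 1 and 29983 for replicate 2, and these include background. The pooled list comes from both replicates, so a site found in all of these lists is shared by the replicates only, without a further observation. The 1894 IDR peaks were exactly the 1894 highest-scoring nuclear regions of the pooled list, with no other region at or above the lowest IDR score of 89.94. An IDR peak is therefore, in these files, a pooled region past a score, and its rank is the same in both lists. Scores are the authors' own, without a unit, and were used only within a list. The files give no read depth, so the depth behind each peak is unknown.

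LIR-3 peaks were found near the 5' ends of pash-1, lin-14, ain-1 and lin-28. Of the 10 genes, 2 (pash-1 and lin-14) had an IDR summit within 500 bp of the annotated 5' end (20%, exact Clopper-Pearson 95% interval 2.52 to 55.6%), against 6.09% of all protein-coding genes. Within 1000 bp there were 4 (40.0%, 12.2 to 73.8%), ain-1 and lin-28 being added, against 7.87% of all protein-coding genes. For lin-41 the nearest IDR summit lay at -1416 bp, outside both windows (negative values are upstream of the 5' end). These intervals cover counting error over genes only, genes are not replicates, and the genes were picked with earlier results known, so the shares are a description.

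**Figure D1:**
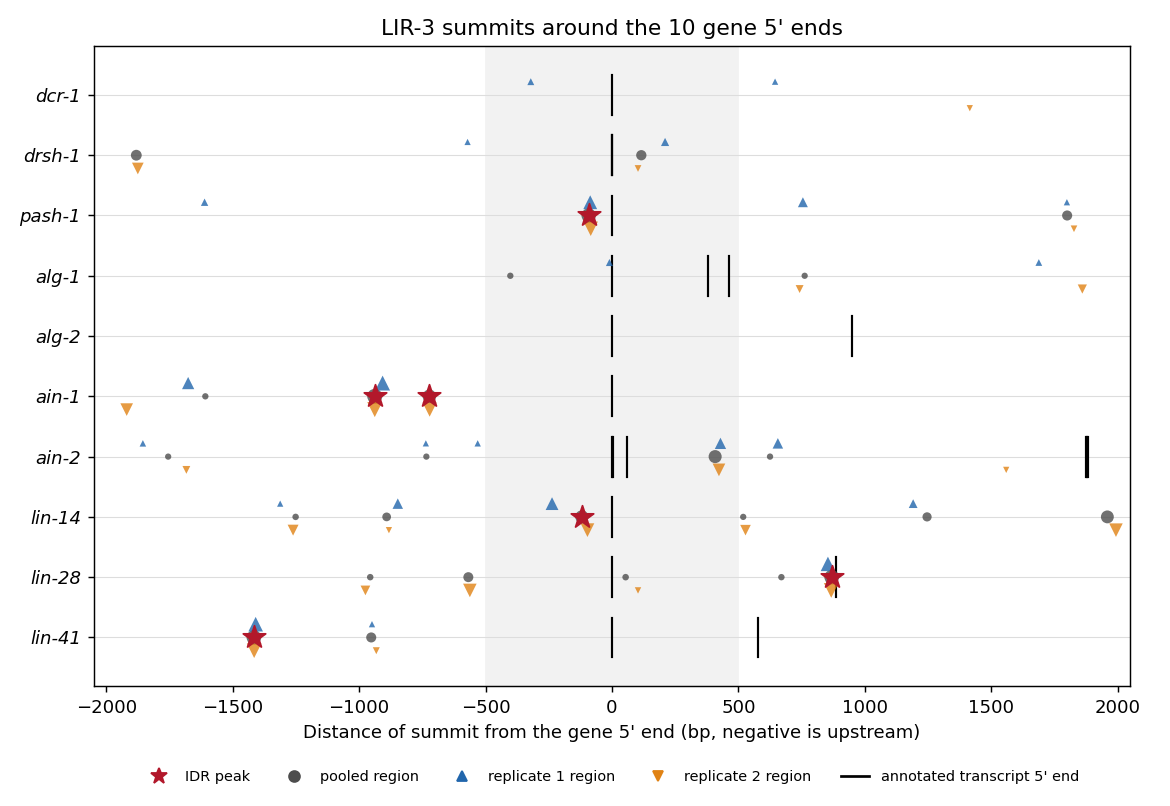
Positions of LIR-3 summits from 2000 bp upstream to 2000 bp downstream of the 5' end of each gene, with stars for IDR peaks, circles for pooled regions and triangles for the regions of each replicate; circles and triangles are larger for stronger ranks, black lines are annotated transcript 5' ends, and the grey band is 500 bp on each side. Stars lie in the band for pash-1 and lin-14 only, and the lin-28 star lies beside its downstream transcript 5' end.

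The DNA under the peaks of ain-1 and lin-14, both on chromosome X, is shown because these are the strongest and the weakest IDR peaks of the 10 genes. Both are read 5' to 3' on the plus strand, which is the strand of the genes, from the RefSeq sequence of WBcel235. In the ain-1 stretch (chrX:16612472-16612771, -979 to -680 bp) the summits are at bases 42 and 258. Capitals there mark matches on either strand to the motif CTGCGTC or to the repeat motif GAGAGA. In the lin-14 stretch (chrX:11465341-11465541, -219 to -19 bp) neither motif was present, and capitals mark the 11 bases centred on the summit.
ain-1: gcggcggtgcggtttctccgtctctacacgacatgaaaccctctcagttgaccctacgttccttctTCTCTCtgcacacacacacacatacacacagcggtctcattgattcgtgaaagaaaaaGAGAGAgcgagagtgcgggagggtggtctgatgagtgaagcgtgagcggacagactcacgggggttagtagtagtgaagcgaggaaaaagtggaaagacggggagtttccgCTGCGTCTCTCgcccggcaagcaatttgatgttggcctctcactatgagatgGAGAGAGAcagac
lin-14: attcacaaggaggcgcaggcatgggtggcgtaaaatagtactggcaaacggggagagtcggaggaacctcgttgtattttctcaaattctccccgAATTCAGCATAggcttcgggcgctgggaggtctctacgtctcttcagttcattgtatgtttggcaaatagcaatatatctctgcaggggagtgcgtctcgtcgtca

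A total of 3 motifs were searched on both strands in 100 bp on each side of a summit. The motifs were chosen with earlier results of these data known, so their shares are a description. Matches to CTGCGTC occurred in 14.5% of the 1894 IDR windows and in 2.05% of the 28090 windows of pooled regions outside the IDR set. The shares were 40.6% and 15.0% for GAGAGA, and 10.1% and 3.38% for CACGTG. Median GC content also differed, at 41.8% in IDR windows and 34.3% in the others, and its part in these shares was not tested.

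Among the 6 IDR windows assigned to the 10 genes, CTGCGTC was present at pash-1, starting at -13 bases from the summit, and at the ain-1 summit at -722 bp, starting at -22 bases from it. In both windows it overlaps a GAGAGA match on the opposite strand, as the run CTGCGTCTCTC in the printed ain-1 sequence shows. At pash-1 that overlapping match, starting at -8 bases from the summit, is the only GAGAGA match. GAGAGA matched in 4 of the 6 windows, at both ain-1 summits, pash-1 and lin-28. None of the 3 motifs matched in the lin-14 and lin-41 windows, and CACGTG matched in none of the 6. GC content was 31.8% at pash-1, 50.2% at lin-14, 47.3% at lin-28, 55.7% at lin-41, and 54.7% and 57.2% at the ain-1 summits. The pash-1 window was thus the only one of the 6 with a GC content under the median of all IDR windows. A match is a description of the sequence, and no binding site was measured.

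The Drosha partner gene pash-1 had the IDR summit closest to its 5' end. The gene (WBGene00011908) lies at 10598673 to 10606621 on the plus strand of chromosome I. Its summit at 10598581, at -92 bp, had a score of 195 and rank 728 of 1894 IDR peaks. It had rank 1252 in replicate 1 (score 65.6, at -86 bp) and rank 693 in replicate 2 (score 118, at -84 bp). All 3 summits thus fell within 8 bp of each other. They lay in the 184 bp between pash-1 and the end of T22A3.6, a gene on the same strand. The 5' end of T22A3.6 itself was at -3167 bp. A weaker region of all 3 lists had its summit within mir-1828, a microRNA gene inside pash-1. That summit was at +1800 bp in the pooled list (score 53.2, rank 5157), with rank 18427 in replicate 1 and 13712 in replicate 2.

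The Drosha gene drsh-1 had only weaker regions at its own 5' end. It lies at 9781324 to 9785724 on the minus strand of chromosome I (WBGene00009163), 57 bp from the end of the tubulin gene tba-1 on the same strand. The pooled summit was at +116 bp in a coding exon, with a score of 54.1 and rank 4918. Replicate 1 had a summit at +210 bp (rank 8328) and replicate 2 one at +103 bp (rank 13160). The pooled rank is well below the IDR limit, which applies to the pooled list only, and the ranks in both replicates are lower still. The nearest IDR summit to drsh-1 was at -2981 bp, at -20 bp from the 5' end of cox-5B, which encodes a subunit of cytochrome c oxidase (score 156, rank 972).

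The Dicer gene dcr-1 had no pooled region and no region of replicate 2 within 1000 bp of its 5' end. It lies at 8071967 to 8080281 on the minus strand of chromosome III (WBGene00000939), and its 5' end is 348 bp from that of apc-2, an anaphase-promoting complex gene on the opposite strand. Replicate 1 alone had summits there, at -321 bp (score 19.1, rank 12106) and at +645 bp (score 15.9, rank 18039). The nearest IDR summit was at -5302 bp (score 200, rank 705), which is -108 bp from the 5' end of K06H7.7.

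Neither Argonaute gene had an IDR peak. For alg-1 (WBGene00000105, 13949110 to 13956261, plus strand of chromosome X) the lists placed weak summits at different sites near the 5' end. The pooled list had summits at -402 bp (score 34.4, rank 17118) and +762 bp (31.2, rank 21262). Replicate 1 had one at -10 bp (19.6, rank 11362), and replicate 2 one at +742 bp (24.5, rank 8937), which falls in a 5' UTR of alg-1 together with the downstream pooled summit. No site within 500 bp of the 5' end was thus shared by the replicates. A region in the 3' UTR of alg-1 was in all 3 lists, at +5866 bp in the pooled list (score 56.7, rank 4359). Its ranks were 6958 in replicate 1 (at +5873 bp) and 12685 in replicate 2 (at +5931 bp). For alg-2 (WBGene00000106, 873212 to 879885, plus strand of chromosome II) no list held a summit anywhere in the gene or within 3000 bp of it. The nearest IDR summit was 20669 bp from the 5' end of alg-1 and 24427 bp from that of alg-2, against a median of 23240 bp over all protein-coding genes.

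The GW182-type gene ain-1 had the strongest peak of the 10 genes. It lies at 16613451 to 16616871 on the plus strand of chromosome X (WBGene00015547). Its IDR summits were at 16612513, at -938 bp (score 439, rank 231), and at 16612729, at -722 bp (score 110, rank 1451). The peaks are 129 and 336 bp long, and both lie between genes. The 5' end of the next protein-coding gene, F59C12.3 on the opposite strand, is 3927 bp upstream of ain-1. The stronger summit had rank 339 in replicate 1 (score 176, at -907 bp) and rank 210 in replicate 2 (score 258, at -938 bp). The weaker one was matched in replicate 2 (score 92.6, rank 951, at -721 bp), and replicate 1 had no summit within 150 bp of it. In the printed sequence, GAGAGA matches start at 25 and 83 bases from the -938 bp summit. The single CTGCGTC starts at -22 bases from the -722 bp summit, with GAGAGA matches starting at -17, 30 and 32 bases from it.

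Its paralogue ain-2 fell just outside the IDR set. The gene (WBGene00015007) lies at 4653467 to 4660153 on the plus strand of chromosome I. Its pooled summit at +408 bp, in an intron, had a score of 88.9 and rank 1926, with a -log10 q-value of 1.73. Replicate 1 had a summit at +429 bp (score 31.2, rank 3691) and replicate 2 one at +423 bp (score 46.4, rank 2258). The site was thus shared by all 3 lists to within 21 bp, at lower ranks than the ain-1 site in each. The 5' end of ptps-1, on the opposite strand, is 561 bp upstream of ain-2, and no summit of any list lay within 500 bp upstream of the ain-2 5' end.

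The early timing gene lin-14, which encodes a nuclear protein that is high in the first larval stage, had an IDR peak near the score limit. It lies at 11465560 to 11485871 on the plus strand of chromosome X (WBGene00003003). The summit at 11465441, at -119 bp, had a score of 93.2, rank 1797 and a -log10 q-value of 1.82, below the highest value of 2.01 in that list. Replicate 2 had a summit at -97 bp (score 69.2, rank 1331). The summit of replicate 1 was at -237 bp (score 42.9, rank 2154), in an exon of the non-coding RNA gene T25C12.9, so the replicates placed it further apart here than at pash-1, lin-28 or lin-41. The IDR summit was also at -136 bp from the 5' end of T25C12.8, a non-coding RNA gene on the opposite strand. The lin-14 and ain-2 summits are the ones just inside and just outside the IDR set among the 10 genes.

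The lin-28 peak lay inside the gene, beside its second annotated transcript start. The gene encodes an RNA-binding protein and lies at 8407630 to 8410804 on the minus strand of chromosome I (WBGene00003014). The IDR summit at 8409935 was 869 bp downstream of the gene's 5' end and at -15 bp from the 5' end of the shorter transcript, which begins at +884 bp. It had a score of 253 and rank 516. Replicate 1 had rank 680 there (score 107, at +854 bp) and replicate 2 rank 449 (score 157, at +867 bp). Near the outermost 5' end the pooled list had only a summit at +54 bp (score 36.8, rank 14415), and replicate 1 had none within 500 bp. Replicate 2 also had a summit at -562 bp with rank 1466 (score 64.2), which replicate 1 lacked and which ranked 5294 in the pooled list (score 52.7, at -568 bp).

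When the 5' end of every annotated transcript was used in place of the outermost one, 3 of the 10 genes had an IDR summit within 500 bp (pash-1, lin-28 and lin-14), against 6.41% of protein-coding genes. The lin-14 gene also has a downstream transcript start, at 14801 bp from the outermost one. Near it the pooled list had a summit at -389 bp from that start (score 44.3, rank 8682), far below the IDR limit.

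The late timing gene lin-41, which encodes a TRIM-NHL protein and is a target of let-7, had its peak further upstream. It lies at 9334800 to 9342496 on the minus strand of chromosome I (WBGene00003026). The IDR summit at 9343912, at -1416 bp, had a score of 239 and rank 556. Its ranks were 583 in replicate 1 (score 119, at -1409 bp) and 551 in replicate 2 (score 137, at -1415 bp), the closest agreement of ranks among the 10 genes. The summit lay between genes, and the 5' end of lin-41 was the nearest one of a protein-coding gene. The next gene upstream, M04C9.2, ends 2228 bp away on the same strand. A weaker region at -952 bp was in all 3 lists (pooled rank 5206, with ranks 19047 in replicate 1 and 11799 in replicate 2).

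**Figure D2:**
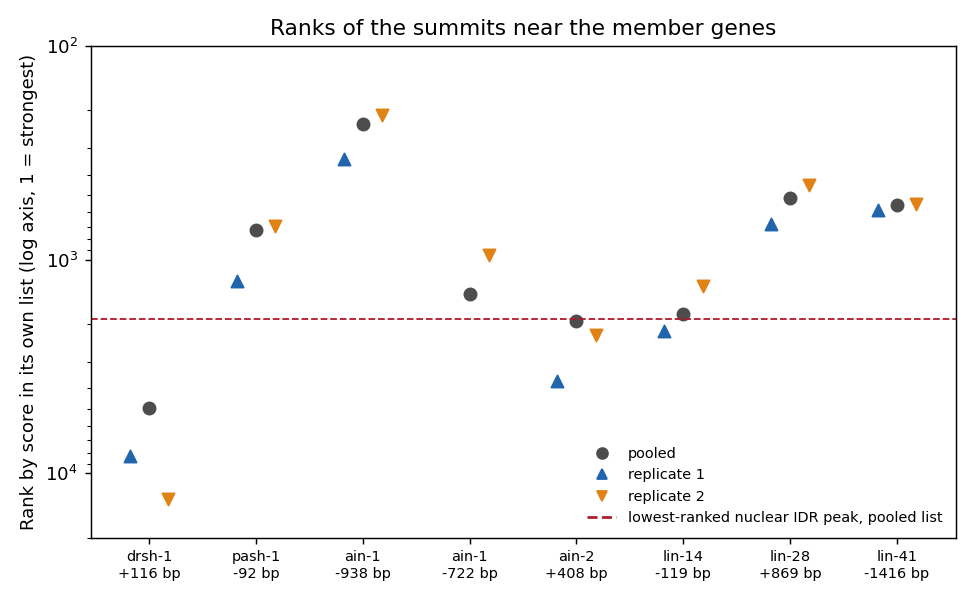
Rank by score, on a log axis with the strongest at the top, of each IDR summit near the genes and of the pooled summits of drsh-1 and ain-2, in the pooled list (circles), replicate 1 (upward triangles) and replicate 2 (downward triangles). The dashed line is the lowest nuclear IDR rank, 1894, and applies to the pooled list only. The lin-41 ranks lie between 551 and 583, and the pooled ain-2 summit lies just below the line at 1926.

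For pash-1, lin-14, ain-1, lin-28 and lin-41, the nearest IDR summit had that gene's own 5' end as the nearest one of a protein-coding gene. For the other 5, which were alg-1, alg-2, ain-2, dcr-1 and drsh-1, the nearest IDR summit was closer to another gene. The median distance from the 5' end to the nearest IDR summit was 2198.5 bp over the 10 genes and 23240 bp over all 19973 protein-coding genes. The 10 genes were picked with earlier results of these data known, so these distances are a description and were not tested. The strongest summits of ain-1, lin-28, lin-41 and pash-1 scored above the median of 159 over all nuclear IDR peaks, and that of lin-14 below it.

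The lists from before the threshold placed regions near most of the 10 genes, and near many other genes. Within 500 bp the pooled list had a summit for 6 of 10 genes, against 35.3% of protein-coding genes. Replicate 1 had one for 6 and replicate 2 for 5, against 35.4% in each. Summits of the pooled list and of both replicates were present for 4 genes (ain-2, drsh-1, pash-1 and lin-14), against 18.7%. Within 1000 bp the pooled list had a summit for 8 of 10 genes, against 51.0%, replicate 1 for 9, against 51.1%, and replicate 2 for 8, against 51.0%. All 3 lists had one for 8 genes, against 32.1%, with dcr-1 and alg-2 the exceptions.

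**Figure D3:**
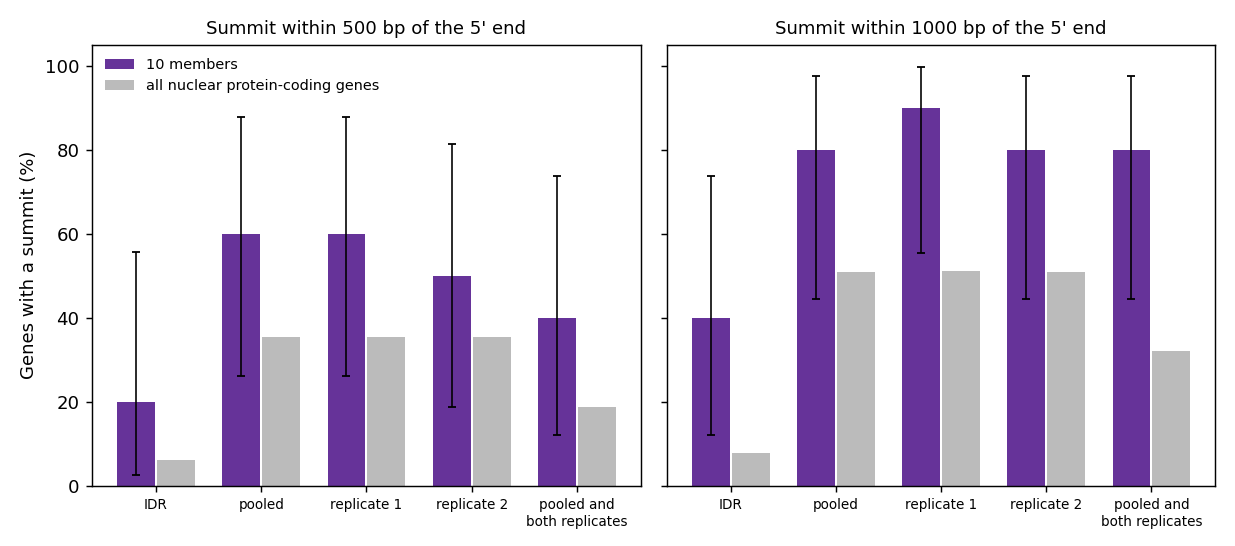
Share of genes with a summit within 500 bp (left) or 1000 bp (right) of the 5' end, for the 10 genes (purple, with exact 95% intervals over genes) and for all nuclear protein-coding genes (grey), in each list. With 1000 bp the IDR share is 40.0% of the 10 genes and 7.87% of all genes. The intervals cover counting error over genes only and are not a test against the grey bars. The 10 genes were picked with earlier results known, so the shares are a description.

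With the outermost 5' end, other ways of linking peaks to genes within 250 or 500 bp gave 1 or 2 of the 10 genes. With a 250 bp window pash-1 and lin-14 were found, against 3.89% of protein-coding genes. The same 2 genes were found when any base of the peak could lie within 500 bp (6.72%), and when each summit was given only to the protein-coding gene with the nearest 5' end (4.75%). Among the strongest 50% of IDR peaks only pash-1 was found (3.71%). With the 1894 strongest peaks of replicate 2 alone, both genes were found (6.03%), and with those of replicate 1 alone only pash-1 (6.33%), since lin-14 ranked 2154 there.

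Inside the genes, the unthresholded lists placed many regions in lin-14. The 20.3 kb of lin-14 held 18 pooled summits, 21 of replicate 1 and 16 of replicate 2, which is 0.886, 1.03 and 0.788 per kb, against 0.299 per kb over the nuclear genome in each list. Among the 3233 protein-coding genes of at least 5000 bp, 97.8%, 99.2% and 96.4% had a density no higher than that of lin-14 in these lists. The strongest of its pooled summits was at +1959 bp (score 83.6, rank 2097), in an exon of the antisense non-coding RNA gene T25C12.7, and the others lay mostly in introns. In the 3.17 kb of lin-28 the density was 1.57 per kb in the pooled list, 0.315 in replicate 1 and 1.26 in replicate 2, where replicate 1 had only 1 summit and replicate 2 had 4. The 6.67 kb of alg-2 held none in any list, as did 38.8% of the long genes in the pooled list. The 7.7 kb of lin-41 held 1 pooled summit (0.13 per kb), and its IDR peak lay outside the gene.

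**Figure D4:**
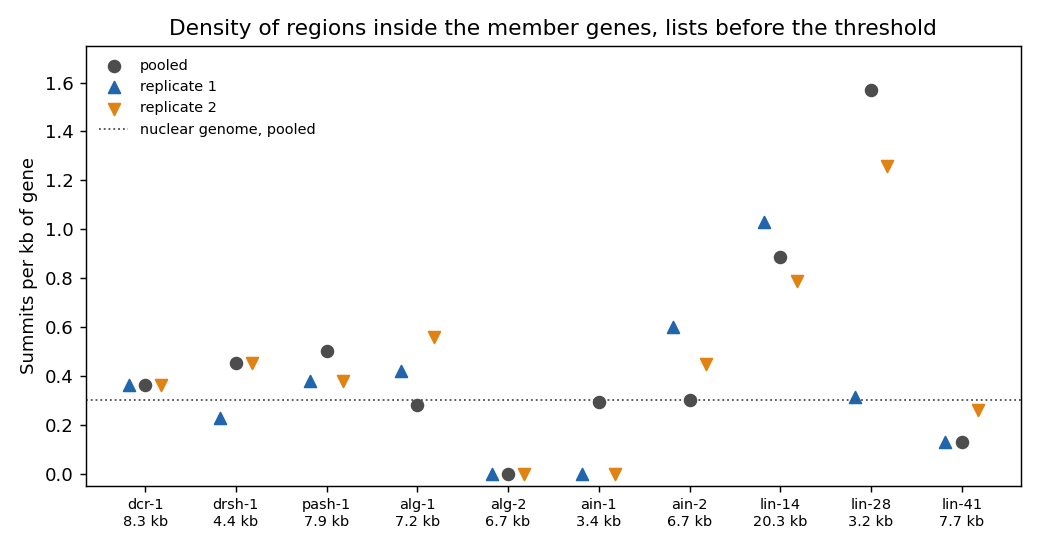
Summits per kb inside each gene in the pooled list (circles), replicate 1 (upward triangles) and replicate 2 (downward triangles), with gene lengths below the names and the density over the nuclear genome in the pooled list as a dotted line at 0.299. Values of lin-14 lie between 0.788 and 1.03 in all 3 lists, and alg-2 lies at 0.

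Further genes of the same pathways were counted in 4 lists, which hold 62 symbols in all, of which 60 matched the annotation. Of 17 further genes for microRNA effectors and turnover, 1 had an IDR summit within 500 bp (5.88%) and 4 within 1000 bp (23.5%), against 6.09% and 7.87% of all protein-coding genes. The first was vig-1, whose product is found in the RNA-induced silencing complex (-433 bp, score 303, rank 409 in the pooled list and 423 in each replicate). The other 3 were singled out after their values were seen. They were nhl-2, a TRIM-NHL cofactor of microRNA silencing (-829 bp, score 1252, rank 28), alg-5, a further Argonaute (-803 bp, score 375, rank 305), and cgh-1, a DEAD-box RNA helicase (-797 bp, score 236, rank 568). The nhl-2 summit, the strongest of all genes named here, had rank 32 in replicate 1 and 22 in replicate 2, and it fell in an exon of the non-coding RNA gene F26F4.14. The alg-5 summit was at -133 bp from the 5' end of the histone gene his-68.

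Of 16 further heterochronic genes, 2 had an IDR summit within 500 bp (12.5%) and 3 within 1000 bp (18.8%), against the same 6.09% and 7.87% of all protein-coding genes. The lin-66 summit was at -416 bp (score 193, rank 733, with ranks 515 and 887 in replicates 1 and 2). That of myrf-1, which encodes a membrane-associated transcription factor, was at -323 bp (score 181, rank 809, ranks 911 and 571), in an exon of the non-coding RNA gene F59B10.7. The kinase gene kin-20 had one at +860 bp in an intron (score 155, rank 982), which was singled out after its value was seen. No IDR summit lay within 1000 bp of the other genes on that list, hbl-1 and lin-29 among them, which are named as examples after their values were seen. None lay within 1000 bp of the 4 matched timing microRNA genes lin-4, mir-48, mir-84 and mir-241. Of these mir-84 had the strongest pooled summit, at -430 bp (score 37.3, rank 13979). These 4 genes are annotated as 75 to 98 bp long, and only their annotated 5' ends were examined. With 4 genes, against 7.87% of all protein-coding genes, finding none says little about them.

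Of 23 other Argonaute and small RNA pathway genes, 1 had an IDR summit within 500 bp, and the count was also 1 within 1000 bp. That share, 4.35%, was no higher than the 6.09% and 7.87% of all protein-coding genes. It was rde-4, which encodes a double-stranded RNA binding partner of Dicer in RNA interference (-125 bp, score 159, rank 947, ranks 860 and 1062). The same summit was at -171 bp from the 5' end of cox-14. The other genes on that list, among them the Argonaute genes rde-1, prg-1 and csr-1, named as examples after their values were seen, had no IDR summit within 1000 bp.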

How the data were processed

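LIR-3 ChIP-seq peak lists of 2 biological replicates of whole L1 larvae were used. Per the labels, sonication fragmented the chromatin, the antibody was against GFP (an antibody field names lir-3), and a control experiment exists, which was not analysed here. Per the descriptions of the deposited files, the authors made a list of peaks with background for each replicate and for the pooled replicates, as input to the IDR step that gave the final set. The score is the authors' signal value in the deposited lists. The -log10 q-value is also from the authors' deposited lists. The sources used here name no peak caller, aligner or IDR threshold, and read depth is unknown.

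Summits of the ce11 lists were compared with gene 5' ends of Ensembl release 115 (WBcel235), and sequence came from RefSeq of the same assembly. All nuclear protein-coding genes gave the background shares. Ranks are among nuclear regions. No test was made. Counting was tested on simulated data. The 10 genes, the further lists and the motifs were chosen with earlier results of these data known. By rule, the genes named are the 10 genes, further genes with an IDR summit within 500 bp, the strongest pooled one of a list with none, and neighbours sharing a summit. Outside this rule, genes with an IDR summit only within 1000 bp, and examples of genes with none, were named after their values were seen. Replicate summits were matched within 150 bp. The ce10 lists were not used. The symbols ntl-1 and let-7 found no gene of that name and were left out. Python 3.11.15, numpy 2.4.6, scipy 1.17.1, pandas 2.3.3 and matplotlib 3.10.9 were used.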

Additional observations from a re-analysis of the deposited data

How the results depend on the processing

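Within 500 bp, 2 of the 10 genes had an IDR summit, against 6.09% of all protein-coding genes. Shares over all protein-coding genes follow each count in brackets. The count became 4 with a 1000 bp window (7.87%) and 1 among the strongest 50% of IDR peaks (3.71%). It was 6 with the pooled list before the threshold (35.3%). With the strongest peaks of a single replicate it was 2 without replicate 1 (6.03%). It was 1 without replicate 2 (6.33%), where lin-14 was lost. It stayed at 2 with 250 bp (3.89%), any base of the peak (6.72%) or the nearest gene only (4.75%). With every transcript 5' end it was 3 (6.41%). The count of 4 genes with summits in all 3 unthresholded lists, against 18.7% of protein-coding genes, became 8 with 1000 bp, against 32.1%. It was 3 to 6 under the other settings tried, for which no share over all protein-coding genes is at hand. Among those settings, leaving out a replicate gave 5 to 6. Leaving out a list removes a condition, so that count could not fall, and it does not measure dependence on a replicate. Of the 6 genes with a pooled summit within 500 bp, the highest score was the same at 1000 bp for 5, and higher for lin-28 (253 against 36.8). No paired analysis was possible because there is 1 group. Read depth is unknown, so what depth limits cannot be given.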
